A study of Mus musculus with 6 samples.

Results

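The genes described are 35 lysosomal genes, taken by symbol from a list made with earlier results of these data known, of 25664 genes in the count table. They were divided by what they act on: 12 serve lipid substrates, 13 glycan substrates and 3 protein substrates, 5 are membrane proteins, and 2 are transcription factors of lysosomal genes. Of the 35, 34 passed the filter on low counts and were tested among 11011 genes, and Sgsh was counted at 6 to 11 reads per library and was not tested. RNA came from alveolar macrophages of mice, which live in the airspaces of the lung and were sorted from lavage fluid. 3 libraries came from Vav1cre/+ Pex5fl/fl mice, called Pex5-deficient here, and 3 came from mice with Pex5fl/fl alone, called control, whose titles say WT although they carry the same floxed alleles. The Vav1 promoter drives Cre in the blood-forming lineage as a whole, so macrophages are not the only cells it reaches. PEX5 is the receptor that brings most enzymes into the matrix of peroxisomes. No source used here gives the age or sex of the mice or says whether animals were pooled. Nor is it said that each sample is its own mouse, and the spread that the p-values rest on may be technical.

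Lysosomes are acidic compartments in which soluble hydrolases take apart the lipids, sugar chains and proteins that a cell swallows or recycles. In alveolar macrophages they receive surfactant, the lipid and protein film of the airspaces, together with dead cells and inhaled particles. Most of the hydrolases cut a single kind of bond, so the loss of a single enzyme leaves its substrate to pile up, which is the basis of the lysosomal storage diseases. TFEB and TFE3 are transcription factors that switch on many lysosomal genes together by binding a short palindrome near their start sites, the CLEAR element, built around the letters CACGTG.

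The promoters of 3 genes are shown because they hold the palindrome more than 1 time, with CACGTG in capitals. Gla carries it at 227 and 194 bases before the start, each time flanked as TCACGTGA, the longer form that overlaps with the shorter. Mcoln1 carries it at 71 and 45 bases before the start, the second time as TCACGTGA, and Lamp1 at 61, 45, 28 and 15 bases, never in the longer form. Sequences are from RefSeq on GRCm38.p6, from 250 bases before to 50 after the start, 5′ to 3′ along the gene. All distances are to the RefSeq start. The GENCODE annotation, used for gene coordinates elsewhere, places the starts of Gla and Mcoln1 further upstream. Gla lies at chrX:134600956-134601255 on the minus strand, Mcoln1 at chr8:3500269-3500568 and Lamp1 at chr8:13158911-13159210, both on the plus strand.
Gla: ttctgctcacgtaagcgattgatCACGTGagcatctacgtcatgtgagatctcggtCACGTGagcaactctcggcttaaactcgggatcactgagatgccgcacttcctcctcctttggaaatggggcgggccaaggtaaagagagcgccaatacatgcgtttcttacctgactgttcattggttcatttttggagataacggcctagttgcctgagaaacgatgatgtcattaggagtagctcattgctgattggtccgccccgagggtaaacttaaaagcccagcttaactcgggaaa
Mcoln1: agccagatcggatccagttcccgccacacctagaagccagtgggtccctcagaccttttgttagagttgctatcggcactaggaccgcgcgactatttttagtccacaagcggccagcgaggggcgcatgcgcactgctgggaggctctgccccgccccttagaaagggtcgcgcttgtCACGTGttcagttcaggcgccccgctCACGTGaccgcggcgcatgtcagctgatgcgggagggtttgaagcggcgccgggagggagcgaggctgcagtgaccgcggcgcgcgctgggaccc
Lamp1: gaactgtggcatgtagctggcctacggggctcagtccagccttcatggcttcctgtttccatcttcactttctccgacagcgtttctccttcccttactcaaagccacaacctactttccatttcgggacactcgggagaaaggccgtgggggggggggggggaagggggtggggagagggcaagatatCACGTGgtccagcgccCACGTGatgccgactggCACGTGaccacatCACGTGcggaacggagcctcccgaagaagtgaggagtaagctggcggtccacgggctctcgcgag

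Of the 35 genes, 32 had a promoter in the RefSeq table and 8 of these held CACGTG: Gla, Arsa, Gaa, Glb1, Naglu, Sgsh, Lamp1 and Mcoln1. Counted by promoter, with alternative starts apart, 8 of 36 (22.2%) held it, against 10.3% of the 10820 promoters of all genes tested and 7.15% of all 32851 promoters of that length. TCACGTGA stood in 2 of 36 (5.56%), against 1.89% for all genes tested. A still longer form of the palindrome stood in 0 of 36, against 0.73% for all genes tested. Of the 73 promoters of the other lysosomal genes described below, 16 (21.9%) held CACGTG and 10 (13.7%) held TCACGTGA. The share with TCACGTGA was thus lower in the genes described here than in the other lysosomal genes, and no test compared these shares. Each motif is its own reverse complement, so both strands were read at once. The 7 tested genes with CACGTG had log2 fold changes (Pex5-deficient over control) from -0.19 to 0.52 with a median of 0.05, and the 24 tested genes whose promoters lacked it from -0.50 to 0.24 with a median of -0.10. Whether the fold changes differ between these 2 sets was not tested. These letters are a description of the window and do not show that a factor binds there.

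Total counts ran from 13325609 to 19413838 per library. Pex5 itself was at 31.4, 36.3 and 29.6 CPM (read counts over the TMM-scaled library size) in the Pex5-deficient libraries and at 33.0, 32.1 and 29.7 CPM in the controls, in the order of their replicate numbers, as in all later lists. Counts over the whole gene do not check the loss of floxed exons. Pex5-deficient replicate 2 stood apart, with 30.4% of its counts in the 50 most abundant genes, against 38.4% to 42.2% in the other 5 libraries, and a scaling factor of 1.34, against 0.90 to 1.03. All 12 alveolar macrophage markers were detected, and 3 of them, Siglecf, Krt79 and Fabp1, were called lower. Of 13 neutrophil markers 8 were at 0 counts in all libraries, Ly6g, Mpo and Elane among them, while S100a8 and Cxcr2 were called higher. Mmp8 (mean ± SD 36.9 ± 1.72 CPM in control, 69.3 ± 34.8 CPM in Pex5-deficient libraries) was not called. Nor was Csf3r, which went the other way (40.5 ± 7.84 and 28.1 ± 9.44 CPM). The summed level, nearly all of it from these 4 genes, was 133 to 180 CPM in Pex5-deficient and 77.7 to 102 CPM in control libraries (CPM of unscaled totals, as for the next lists). Of 10 markers of monocytes and macrophages derived from them 2 were at 0 in all libraries, C1qc and F13a1, with sums of 5.25 to 9.61 CPM against 4 to 7.81 CPM. The 4 eosinophil markers were at 0 in all libraries. The 10 lymphocyte markers, with Cd3d and Cd3g at 0 in all libraries, summed to 311 to 342 against 283 to 417 CPM, nearly all of it Cd2. The 9 epithelial markers summed to 67.0 to 73.8 against 40.9 to 55.0 CPM, nearly all of it Cdh1. The part of these cells in the results below was not tested, and in bulk RNA fewer cells of a type and less RNA per cell cannot be told apart.

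None of the lysosomal hydrolases and membrane proteins passed the test between Pex5-deficient and control macrophages, and Gla was the nearest to it. With edgeR's quasi-likelihood test, adjusted by Benjamini-Hochberg over all genes tested, 0 of 34 were called, where 3.25% of all genes were called. At an unadjusted p under 0.05 there were 6 of 34, against 18.9% of all genes: Gla and Mcoln1 higher, and Man2b1, Ppt1, Laptm4a and Pla2g15 lower. DESeq2, which called 6.86% of all genes, called 3 of 34, Gla higher and Man2b1 and Ppt1 lower. The log2 fold changes ran from -0.50 to 0.52 with a median of -0.05, or of 0.09 with scaling by library size alone (all genes tested: 0.00 and 0.17), 13 above 0 and 21 below, and the median size of the difference, sign left aside, was 0.14, against 0.19 for all genes. For 19 of 34 genes the 95% interval of the difference lay within 1.5-fold either way, as it did for 47.7% of all genes. The groups did not overlap for 7 of 34, against 26.1% of all genes: Gla and Aga were higher, and Gm2a, Pla2g15, Man2b1, Ppt1 and Laptm5 lower, in every Pex5-deficient library.

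Without Pex5-deficient replicate 2 more of the intervals were narrow. Then 26 of 34 genes had an interval within 1.5-fold, against 43.9% of all genes, 1 of 34 was called, Gla (4.75% of all genes), 7 of 34 had an unadjusted p under 0.05 (21.6% of all genes), and the median log2 fold change was 0.00, with 17 genes above and 17 below. The groups, then of 2 and 3 libraries, did not overlap for 10 genes higher and 8 lower, against 40.1% of all genes.

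**Figure D1:**
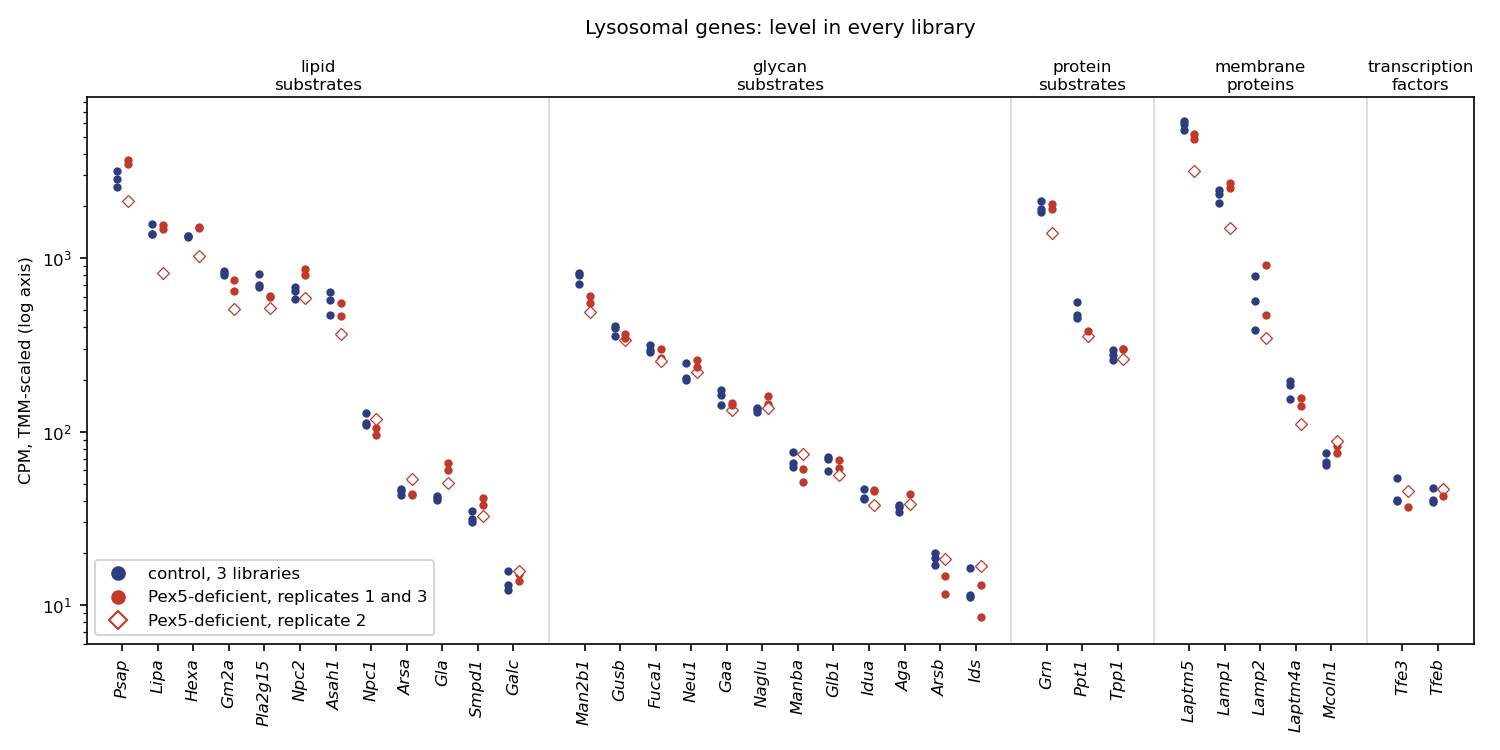
Level of the 34 tested genes in every library, in TMM-scaled CPM on a log axis, by what the genes act on and, within that, by level in control. Blue points are the 3 control libraries, filled red points Pex5-deficient replicates 1 and 3, and open diamonds replicate 2; Gla stands above its controls and Man2b1, Ppt1, Gm2a, Pla2g15 and Laptm5 below theirs in all 3 Pex5-deficient libraries.

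Among the genes for lipid substrates the largest difference was that of Gla, the alpha-galactosidase that takes the end galactose off globotriaosylceramide and is missing in Fabry disease. Its levels were 42.5, 41.5 and 40.2 CPM in the controls and 60.3, 50.9 and 66.4 CPM in the Pex5-deficient libraries. The controls lay close together and every Pex5-deficient library stood above them, replicate 2 the nearest. Its log2 fold change with SE was 0.52 ± 0.12 (n = 3 per group, edgeR adjusted p = 0.0523), with a 95% interval from 0.25 to 0.78. Gla missed the threshold by little and was called by DESeq2 (adjusted p = 0.0142), with upper-quartile factors (0.0415), with no filter on low counts (0.0369), and without Pex5-deficient replicate 2 (0.63, adjusted p = 0.0189). It was not called with limma-voom (0.0614), RLE size factors (0.0524) or library size alone (0.0936). Nor was it with a filter at a mean of 5 CPM (0.0558) or the replicate number as a block (0.166). Without any 1 of the other 5 libraries it was not called either, with adjusted p from 0.123 to 0.157. Gla lies on chromosome X from 134588149 to 134601125 (GRCm38), and it is the gene shown above with 2 copies of TCACGTGA in its promoter.

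Pla2g15 and Gm2a went the other way. Pla2g15 is the lysosomal phospholipase that takes surfactant phospholipid apart in alveolar macrophages. It measured 704, 811 and 683 CPM in control and 608, 516 and 597 CPM in Pex5-deficient libraries. All 3 Pex5-deficient libraries were lower, with a log2 fold change of -0.35 ± 0.15 (adjusted p = 0.252, 95% interval -0.69 to -0.01). Gm2a encodes the activator that lifts GM2 ganglioside out of the membrane for beta-hexosaminidase. It measured 818, 805 and 840.5 CPM in control and 647, 509 and 747 CPM in Pex5-deficient libraries. The controls of Gm2a agreed closely, the Pex5-deficient libraries were spread below them, and the log2 fold change was -0.37 ± 0.17 (adjusted p = 0.291, interval -0.77 to 0.02), or -0.22 without replicate 2.

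Hexa, the alpha chain of the hexosaminidase that Gm2a serves, did not share this pattern. It measured 1336, 1352 and 1326 CPM in control and 1514, 1026 and 1490.4 CPM in Pex5-deficient libraries. Pex5-deficient replicates 1 and 3 were above all controls and replicate 2 below all of them, so that the groups overlapped (log2 fold change 0.01 ± 0.20, adjusted p = 0.992). Psap, the precursor of the saposins that help several sphingolipid hydrolases, had the same shape. Its levels were 2851, 3173 and 2573 CPM in control and 3668, 2141 and 3475 CPM in Pex5-deficient libraries. Its log2 fold change was 0.11 ± 0.26 with all libraries (adjusted p = 0.865) and 0.33 without replicate 2 (adjusted p = 0.196).

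The genes for cholesterol leaving the lysosome gave no call either. Lipa, the acid lipase that frees cholesterol and fatty acids from lipoprotein lipids, measured 1567, 1371 and 1388 CPM in control and 1476, 818 and 1553 CPM in Pex5-deficient libraries. Only replicate 2 stood outside the range of the others, well below them, and the log2 fold change was -0.17 ± 0.25 (adjusted p = 0.772) or 0.08 without it. Npc2, the soluble protein that picks the freed cholesterol up, measured 644, 686 and 583 CPM in control and 802, 590.4 and 871 CPM in Pex5-deficient libraries. Here too replicates 1 and 3 exceeded every control and replicate 2 did not (0.24 ± 0.18, adjusted p = 0.517, and 0.40, adjusted p = 0.0959, without replicate 2). Npc1, the membrane protein that takes cholesterol over from NPC2, had -0.13 ± 0.12 (adjusted p = 0.602, interval -0.40 to 0.14), within 1.5-fold either way. The remaining genes of this class were Smpd1, the acid sphingomyelinase (0.20, and 0.31 without replicate 2), Asah1, the acid ceramidase (-0.29, and -0.13 without replicate 2), Galc, which takes galactose off galactosylceramide (0.12), and Arsa, which takes the sulfate off sulfatide (0.05). In all, 7 of the 12 lipid genes had a log2 fold change above 0 and 5 below, with a median of 0.03.

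Of the 12 tested genes for glycan substrates 9 had a log2 fold change below 0 and 3 above, with a median of -0.11, and 10 of 12 intervals lay within 1.5-fold. The exceptions were Man2b1 and Arsb. Man2b1, the lysosomal alpha-mannosidase that trims the sugar chains of glycoproteins, had the lowest log2 fold change of all 34 genes. It measured 797, 710.1 and 825 CPM in control and 549.6, 491 and 608 CPM in Pex5-deficient libraries. The groups were well apart, with a log2 fold change of -0.50 ± 0.15, an edgeR adjusted p of 0.122 and an interval from -0.85 to -0.15. DESeq2 called it (adjusted p = 0.0088), and edgeR's adjusted p without any 1 library ran from 0.0965 to 0.335. Manba, the beta-mannosidase that acts after it on the last mannose of the chain, had -0.13 with overlapping groups. Aga, which cuts the bond between the sugar chain and asparagine, measured 36.6, 34.5 and 37.9 CPM in control and 38.4, 38.3 and 43.6 CPM in Pex5-deficient libraries, and its groups were apart by a narrow margin (0.14 ± 0.10, adjusted p = 0.487).

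The enzymes that take heparan sulfate apart 1 bond after another were among the glycan genes. Ids, which removes a sulfate from iduronic acid, and Idua, which removes the iduronic acid itself, had log2 fold changes of -0.01 ± 0.25 and -0.00 ± 0.11. The interval of Ids, -0.58 to 0.57, reached nearly to 1.5-fold either way, and that of Idua ran from -0.26 to 0.26. Naglu, which removes N-acetylglucosamine, measured 129.7, 136 and 137 CPM in control and 144, 136 and 159.8 CPM in Pex5-deficient libraries (0.13 ± 0.11, adjusted p = 0.568). Sgsh, the sulfamidase of the same chain of steps, was counted at 6, 9 and 10 reads in control and 6, 11 and 7 reads in Pex5-deficient replicates 1 to 3, with overlapping groups. Of its exon sequence 21.64% overlaps with exons of the antisense gene Card14, and the strand setting of the counting is stated nowhere in the sources used, so reads of these 2 genes may not have been told apart. Hgsnat, which is not among the 35 genes and acetylates the sugar between the steps of SGSH and NAGLU, had an adjusted p just under the threshold. It measured 53.4, 46.9 and 55.4 CPM in control and 104, 70.1 and 78.4 CPM in Pex5-deficient libraries (0.70 ± 0.15, adjusted p = 0.0494), and was not called with limma-voom (0.0527) or with a filter at a mean of 5 CPM (0.0559). Whether Hgsnat differs from the other enzymes of the pathway was not tested.

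Of the other glycan genes none was called. Gaa, the acid alpha-glucosidase of glycogen, measured 143, 175 and 163 CPM in control and 147, 133 and 143 CPM in Pex5-deficient libraries (-0.19 ± 0.11, adjusted p = 0.413). Gusb, the beta-glucuronidase, measured 409, 359 and 396 CPM in control and 366, 336 and 346 CPM in Pex5-deficient libraries (-0.15 ± 0.12, adjusted p = 0.559). For both, the Pex5-deficient libraries lay in the lower part of the controls' range or just below it. Glb1, the beta-galactosidase, had -0.10, Neu1, the sialidase, 0.14, and Fuca1, the fucosidase, -0.13. Arsb, which removes sulfate from dermatan and chondroitin sulfate, had -0.31, or -0.16 without Pex5-deficient replicate 1 and -0.48 without replicate 2, but antisense genes cover 39.94% of its exon sequence, so its value is uncertain. Arsa is uncertain in the same way, with 18.75% covered, and Hexa, with 12.78%, while Glb1 shares 2.36% of its 100-base words with the overlapping gene Tmppe.

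Of the 3 genes for protein substrates Ppt1 stood apart between the groups. PPT1 takes palmitate off proteins bound for breakdown, and its loss causes a childhood form of neuronal ceroid lipofuscinosis. It measured 560.3, 450.4 and 473 CPM in control and 354, 355 and 383 CPM in Pex5-deficient libraries. All Pex5-deficient libraries lay below all controls and replicate 2 lay close to replicate 1 (log2 fold change -0.44 ± 0.14, edgeR adjusted p = 0.129, interval -0.76 to -0.13). DESeq2 called it (adjusted p = 0.0176). Tpp1, a protease that takes tripeptides off the front end of proteins, measured 259.6, 278 and 296 CPM in control and 300.2, 263 and 300.4 CPM in Pex5-deficient libraries, with overlapping groups (0.05 ± 0.12, adjusted p = 0.868). Grn, the precursor of granulins, measured 1918, 2126 and 1839 CPM in control and 1915, 1394 and 2043 CPM in Pex5-deficient libraries (-0.14 ± 0.21, adjusted p = 0.782), and only replicate 2 lay below the controls.

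The membrane proteins had the widest intervals of the 5 classes, with a median reach of 0.59 to either side on the log2 scale, against 0.28 for the glycan genes. Laptm5, a lysosomal protein of blood cells that sends receptors to breakdown, measured 6151, 5969 and 5517 CPM in control and 4855, 3192 and 5202 CPM in Pex5-deficient libraries. The groups did not overlap, but the spread within the Pex5-deficient group was large, and the log2 fold change was -0.41 ± 0.28 (adjusted p = 0.462) or -0.21 without replicate 2 (adjusted p = 0.372). Its relative Laptm4a, a small protein of late endosomes and lysosomes, measured 197, 187 and 154 CPM in control and 156, 110.5 and 141 CPM in Pex5-deficient libraries (-0.40 ± 0.16, adjusted p = 0.211, and -0.26 without replicate 2). The highest Pex5-deficient library of Laptm4a was just above the lowest control. Lamp1 and Lamp2 encode the glycoproteins that coat the inner face of the lysosomal membrane. Lamp1 measured 2478, 2334 and 2084 CPM in control and 2546, 1497 and 2725 CPM in Pex5-deficient libraries (-0.03 ± 0.26, adjusted p = 0.97). Lamp2 varied most of all 34 genes within the groups, with 795, 569 and 387 CPM in control and 472, 347 and 909.7 CPM in Pex5-deficient libraries. Its interval, -0.86 to 0.82, allows a difference past 1.5-fold in either direction.

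Mcoln1, the calcium channel of the lysosomal membrane whose opening is known to activate TFEB, measured 64.5, 75.9 and 67.0 CPM in control and 82.9, 88.2 and 75.8 CPM in Pex5-deficient libraries. The lowest Pex5-deficient library was just below the highest control, and the other two were above all controls. The log2 fold change was 0.25 ± 0.11 (adjusted p = 0.258, interval 0.00 to 0.50), so that a rise past 1.5-fold lies outside the interval. Neither transcription factor gave a call. Tfeb measured 39.1, 47.5 and 40.3 CPM in control and 47.2, 47.0 and 42.4 CPM in Pex5-deficient libraries (0.11 ± 0.11, adjusted p = 0.651, interval -0.14 to 0.35). Tfe3 measured 39.7, 40.7 and 54.1 CPM in control and 45.8, 45.5 and 36.7 CPM in Pex5-deficient libraries (-0.07 ± 0.15, adjusted p = 0.841, interval -0.41 to 0.26). Both intervals lie within 1.5-fold, and the transcript level says nothing of whether the proteins are in the nucleus, which is how they are mainly controlled.

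**Figure D2:**
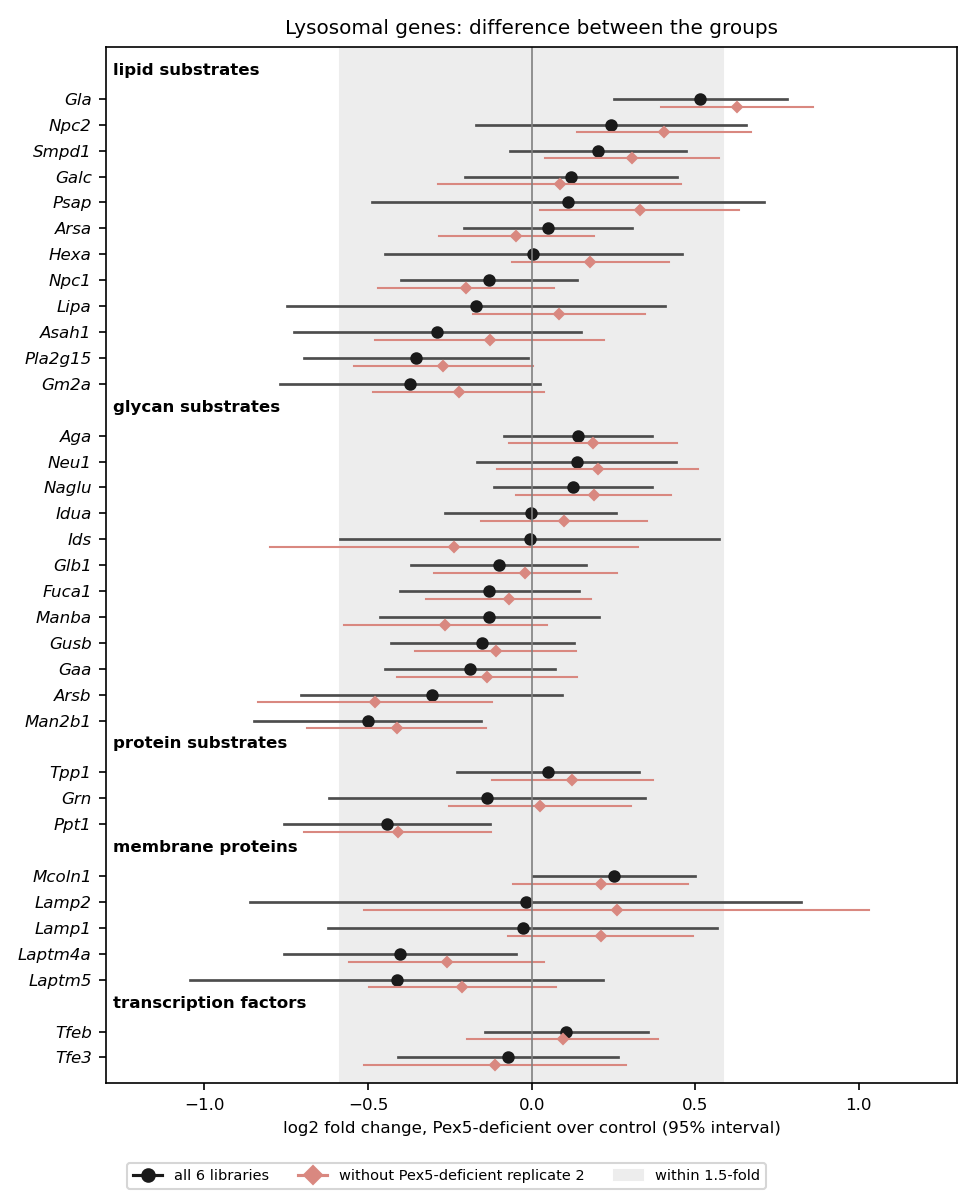
Log2 fold change of the 34 tested genes, Pex5-deficient over control, with 95% intervals, in black for all 6 libraries and in pink without Pex5-deficient replicate 2; the grey band marks 1.5-fold either way. 19 of the 34 black intervals and 26 of the 34 pink ones lie wholly inside the band.

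The level of Pex5-deficient replicate 2 went with the abundance of the gene. Set against the mean of Pex5-deficient replicates 1 and 3, it was lower for 6 of the 6 genes at or above 1000 CPM in control, by a median log2 ratio of -0.70, for 14 of the 15 genes from 100 to 1000 CPM (median -0.19), and for 5 of the 13 below 100 CPM (median 0.13). All genes tested had medians of -0.73, -0.22 and 0.04 in the same 3 ranges, close to those of the lysosomal genes. Lamp2 (-0.99) and Lipa (-0.89) were the lowest in it and Ids (0.64) the highest. Before scaling, the 34 genes together took 2.06% of the counts of replicate 2 and 2.13% and 2.14% of those of Pex5-deficient replicates 1 and 3, against 2.11%, 2.14% and 2.20% in control replicates 1 to 3. On the TMM scale their summed level was 15392 CPM in replicate 2, 22171 and 23443 CPM in Pex5-deficient replicates 1 and 3, and 23525, 23252 and 21332 CPM in control replicates 1 to 3. Replicate 2 was the lowest of the 6 libraries by either measure, by far more in the scaled sum than in the share of counts.

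**Figure D3:**
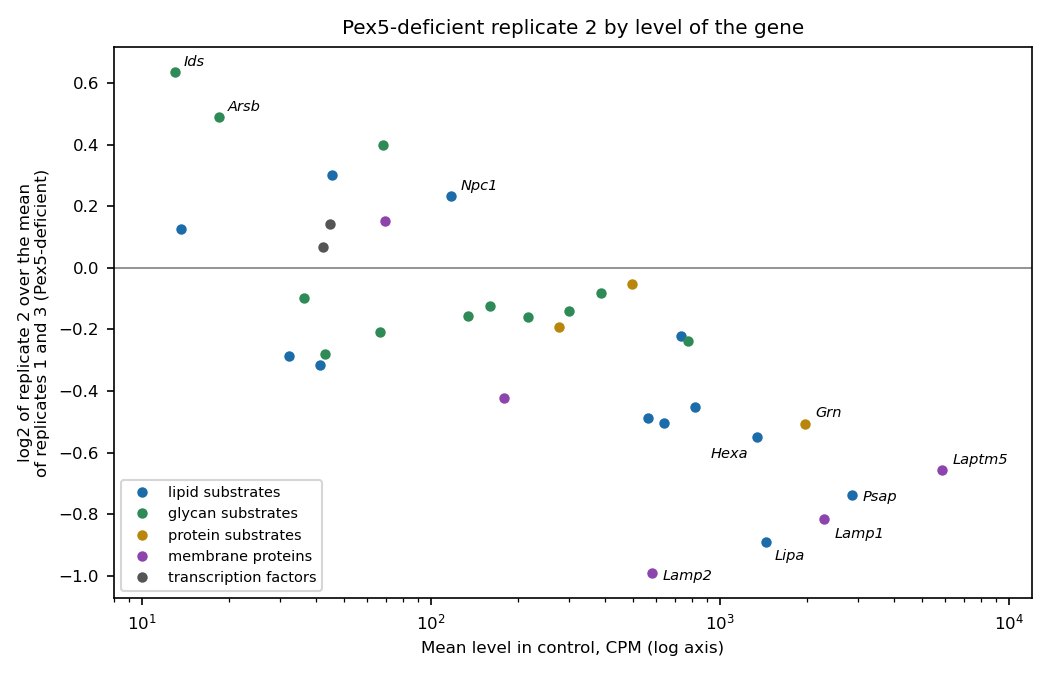
Each point is 1 of the 34 tested genes, placed by its mean level in control (CPM, log axis) and by the log2 ratio of Pex5-deficient replicate 2 over the mean of Pex5-deficient replicates 1 and 3. The 6 genes at or above 1000 CPM all lie below 0, between -0.89 and -0.51, and 8 of the 13 genes below 100 CPM lie above 0.

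Levels were compared between genes per length, as CPM per kilobase of the longest principal transcript. In control Laptm5 was the highest, at 2261 ± 126 CPM per kilobase (mean ± SD, n = 3), followed by Psap at 1079 ± 113, Lamp1 at 1031 ± 89.4, Grn at 838 ± 63.5, Hexa at 670.4 ± 6.62 and Lipa at 486 ± 36.6. Psap and Lamp1 did not differ beyond their spread, and the other neighbours in that row did. The Pex5-deficient libraries had the same 6 genes in the same order, from 1699 ± 413 for Laptm5 to 432 ± 136 for Lipa. Their spreads were wider and overlapped between all neighbours in that row, with replicate 2 the lowest for each of the 6 genes. Within each of the 3 Pex5-deficient libraries the order was nevertheless the same. At the low end in control stood Sgsh, then Ids at 2.62 ± 0.594, Galc at 3.58 ± 0.487 and Arsb at 4.60 ± 0.391 CPM per kilobase. Ppt1, Man2b1, Asah1, Gm2a and Npc2, in the places from 8 to 12 in control, lay between 193 and 208 CPM per kilobase and did not differ beyond their spread. In the Pex5-deficient libraries Npc2 was at place 7 (229 ± 44.3 CPM per kilobase) and Man2b1 at place 13 of the 35 (144 ± 15.3). There Npc2 did not differ beyond its spread from Pla2g15 at place 8 (212 ± 18.5), nor Man2b1 from Ppt1 at place 12 (153 ± 6.83).

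Other lysosomal genes, 77 in 4 lists, were set beside these 35, and 5 of the 72 tested were called, all higher (1.74% of all genes were called higher and 1.51% lower). Dpp7, a lysosomal protease that takes dipeptides off the front end of peptides, rose from 107 ± 13.6 to 180.0 ± 18.7 CPM (0.76 ± 0.13, adjusted p = 0.0236), and with Hgsnat it made 2 of the 28 tested in the list of soluble proteins, in which Hgsnat stands although its product is a membrane enzyme. Of the 24 tested membrane proteins Cd63, a tetraspanin of late endosomes, rose from 207 ± 145 to 939 ± 320.2 CPM (2.18 ± 0.47, adjusted p = 0.0454), and Tpcn2, a cation channel of the lysosomal membrane, from 10.9 ± 1.04 to 17.3 ± 1.33 CPM (0.66 ± 0.13, adjusted p = 0.0368). Of the 11 tested genes that deliver enzymes to lysosomes Cln8, which helps new hydrolases out of the endoplasmic reticulum, rose from 47.7 ± 2.30 to 68.3 ± 3.35 CPM (0.52 ± 0.09, adjusted p = 0.0261). Gga2, an adaptor for sorting at the Golgi, had 0.52 ± 0.20 (adjusted p = 0.206), or 0.27 without Pex5-deficient replicate 1. Of the 9 tested relatives and regulators of TFEB and TFE3 0 were called by edgeR, with 2 at an unadjusted p under 0.05, Fnip2 (0.51 ± 0.13, adjusted p = 0.0889) and Rragc (0.57 ± 0.17, adjusted p = 0.122, and 0.36 without Pex5-deficient replicate 2), both part of the signalling at the lysosome that controls the factors, and 1 by DESeq2, Fnip2 (0.0490).

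The list medians were 0.01 for the list of soluble proteins, 0.17 for the membrane proteins, 0.06 for delivery and 0.09 for the regulators. The calls depended on the settings and on which libraries were used. With the filter at 5 CPM Cd63 was not called either (adjusted p = 0.0562), and with library size as the only scaling Tpcn2 (0.110) and Cln8 (0.0774) were not. Leaving out control replicate 1, control replicate 3 or Pex5-deficient replicate 1 left 0 calls in these lists. Without Pex5-deficient replicate 3 there were 2, Cln8 and Slc11a1, and without control replicate 2 there were 3, Dpp7, Cd63 and Gpnmb. Of these, edgeR did not call Slc11a1 and Gpnmb with all libraries. Leaving out Pex5-deficient replicate 2 gave 8. Hgsnat kept its call when Pex5-deficient replicate 2 was the library left out, Dpp7 and Cd63 when it was that library or control replicate 2, Cln8 when it was Pex5-deficient replicate 2 or 3, and Tpcn2 lost its call whichever library was left out.

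**Figure D4:**
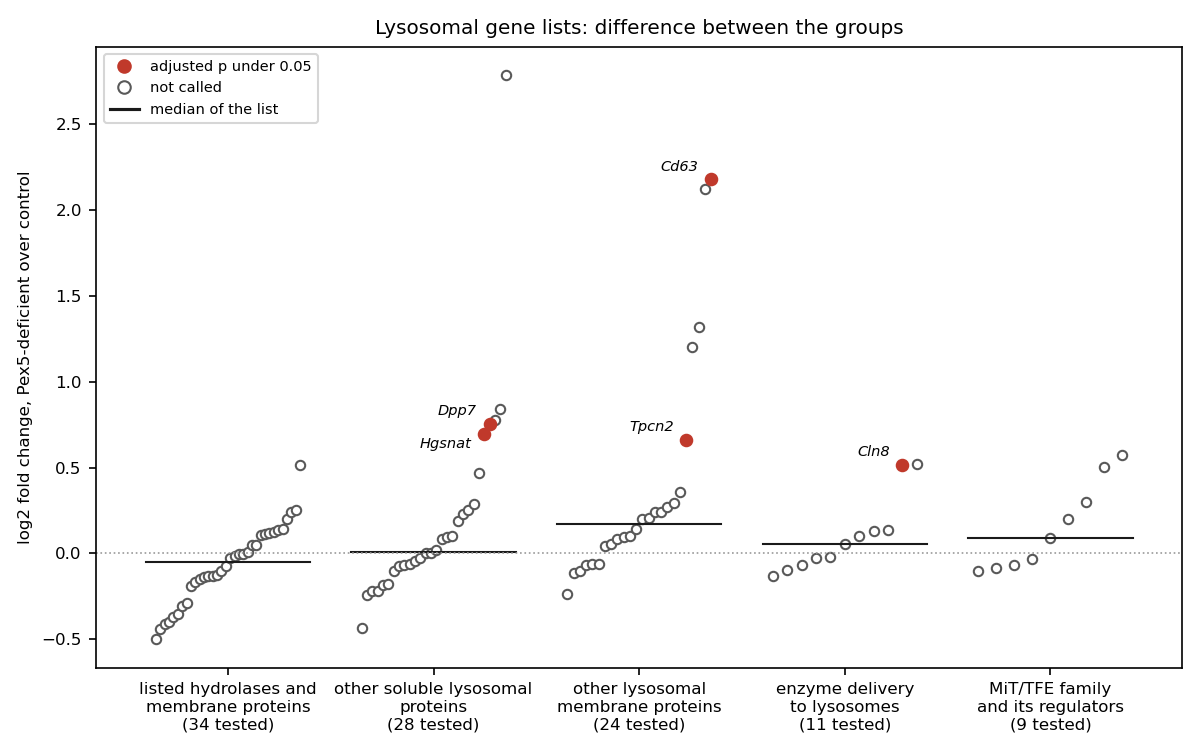
Log2 fold change, Pex5-deficient over control, of the 34 tested genes described here and of the 4 other lysosomal lists, 1 point per gene in rising order within each list, red where the edgeR adjusted p was under 0.05, with the median of each list as a line. The 5 called genes, Dpp7, Hgsnat, Cd63, Tpcn2 and Cln8, all lie above 0.5, and the 34 genes lie between -0.50 and 0.52.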

How the data were processed

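Per the labels' protocols, RNA of sorted macrophages was made into stranded libraries (SMART-Seq) and read from a single end. The authors deposited raw counts of reads per gene, and the labels name no molecular identifiers. The submitters' processing notes name DESeq2 1.40.1, R 4.3.2, featureCounts and STAR, with the builds mm10 and GRCm38.p5. Their other versions, the annotation and the strand setting are stated nowhere in the sources used. Groups follow the genotype given with each title, and replicate numbers the titles. The 35 genes, their classes and all lists were chosen with earlier results of these data known.

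Genes were filtered with filterByExpr (minimum count 10, minimum total 15), scaled by TMM and tested with edgeR 4.0.16 (glmQLFit, glmQLFTest) in R 4.3.3, two-sided, threshold 0.05 after Benjamini-Hochberg adjustment over all genes tested. The table's 6 libraries were all used. Standard errors come from the F statistics and 95% intervals from these. DESeq2 1.42.0, limma-voom (limma 3.58.1), other scalings and filters and leaving out each library were tried. Named in full are called genes and those whose groups do not overlap, and per other list the called genes and the 2 with the smallest p. Other genes of the 35 are named by their role, some with every library's value, chosen after values were seen. The test was tested on simulated data. Coordinates, lengths and overlaps are from GENCODE M21 (GRCm38), where all 35 symbols matched. No 2 libraries were near-identical. Some single marker genes of other cells are not reported here.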

Additional observations from a re-analysis of the deposited data

How the results depend on the processing

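With DESeq2 755 genes were called in place of 358, 1 of the lysosomal genes higher (Gla), 2 lower (Man2b1, Ppt1) and 10 other lysosomal genes. Gla was also the 1 gene called higher with upper-quartile factors and with no filter on low counts, where 8 other lysosomal genes were called; with a mean of at least 5 CPM 3 were. With library size as the only scaling, all genes had a median log2 fold change of 0.17 and the 34 genes one of 0.09 in place of -0.05, so that relative to all genes they stayed below 0. When each library was left out in turn, the calls ranged from 76 to 523 over all genes, from 0 to 1 for lysosomal genes higher and 0 lower, and from 0 to 8 for the other lysosomal genes, and the median of the 34 genes from -0.09 to 0.00. With the replicate number as a block 83 genes and 0 other lysosomal genes were called. The same-numbered libraries did not deviate together (correlations -0.21, -0.06 and -0.41), and differently numbered ones ran from -0.19 to 0.40. With 3 libraries per group these correlations cannot show whether the numbers pair the samples.

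Signs near 0 turned in some settings. With library size alone they were those of 10 genes: Lamp1 (0.09), Lamp2 (0.09), Npc1 (0.05), Tfe3 (0.10), Gusb (0.01), Glb1 (0.05), Manba (0.06), Fuca1 (0.02), Idua (0.15) and Ids (0.21). With upper-quartile factors they were Lamp2 (0.00), Idua (0.01) and Ids (0.01), with RLE size factors Idua (0.00) and Ids (0.00), with DESeq2 Idua (0.00), with limma-voom Ids (0.03) and with the replicate block Hexa (-0.02). Leaving out each library in turn gave ranges across 0 for Psap (-0.03 to 0.33), Lamp1 (-0.19 to 0.21), Hexa (-0.09 to 0.18), Lipa (-0.33 to 0.08), Grn (-0.25 to 0.03), Lamp2 (-0.51 to 0.27), Tfe3 (-0.15 to 0.10), Arsa (-0.05 to 0.10), Idua (-0.06 to 0.10) and Ids (-0.24 to 0.21). None of these was called in any of these settings, and the cause was not tested.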
